A study of Homo sapiens with 18 samples.

Results

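Kidney development rests on a small set of transcription factors, and 8 of them were followed here through G401, a malignant rhabdoid tumour cell line that derives from kidney: OSR1, PAX2, PAX8, LHX1, EYA1, SIX2, SALL1 and WT1. They were taken by symbol, as a list of nephron lineage factors, from a table of 55765 gene rows, and all 8 had a row. The 18 RNA libraries, made from poly(A)-selected RNA with a stranded kit, form 6 groups, each with 3 biological replicates. The control line with an intact RB1 gene, edited at the AAVS1 safe harbour locus (WT), and E1 and F2, both lines with each RB1 allele disrupted by CRISPR/Cas9, received either DMSO or 10 µM tazemetostat for 11 days. RB1 restrains E2F transcription factors, and tazemetostat inhibits EZH2, the enzyme of Polycomb repressive complex 2 (PRC2) that methylates histone H3 at lysine 27. E1 and F2 are each a single clone, so for any value of E1 or F2 alone the loss of RB1 and the properties of that clone cannot be told apart.

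In the embryo OSR1 marks the intermediate mesoderm from which the kidney arises. PAX2 and PAX8, paired-box paralogs, specify the nephric lineage within it, and LHX1, a LIM-homeobox factor, acts in the nephric duct and again when progenitors form the renal vesicle. EYA1, SIX2 and SALL1 act in the cap mesenchyme, where EYA1 is a co-activator of homeobox proteins such as SIX2, and SIX2 keeps nephron progenitors self-renewing. WT1, a zinc finger factor, acts in progenitors and later in podocytes, and the loci of such lineage factors are textbook targets of PRC2 in cells that do not use them.

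The factors were of 3 kinds by their level in DMSO and their level with tazemetostat. PAX2 and LHX1 were present in every library. PAX8 and EYA1 had 0 reads in all 9 DMSO libraries and were present in all 9 tazemetostat libraries, and WT1 showed the same pattern at 1 to 7 reads. OSR1 had 0 to 2 reads in DMSO libraries, 14 to 17 in WT and 7 to 10 in F2 with tazemetostat, and 1 in each E1 library with tazemetostat. SIX2 had 0 reads in all 18 libraries, and SALL1 had 2 reads in a single library. Values below are normalized counts, which are reads divided by a size factor per library.

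The stretches upstream of 3 of these factors are shown to set the kinds side by side, with PAX2 present throughout, PAX8 read only under tazemetostat and SIX2 without a read. They come from the RefSeq promoter table on GRCh38.p14, which has entries for 4 of the 8 (WT1, PAX2, PAX8 and SIX2), run 5′ to 3′ on the gene's strand up to the start site or to the nearest annotated exon, and have each CpG in capitals. PAX2 is at chr10:100745332-100745581 on the plus strand, PAX8 at chr2:113278951-113279171 on the minus strand and SIX2 at chr2:45009453-45009702 on the minus strand.
PAX2: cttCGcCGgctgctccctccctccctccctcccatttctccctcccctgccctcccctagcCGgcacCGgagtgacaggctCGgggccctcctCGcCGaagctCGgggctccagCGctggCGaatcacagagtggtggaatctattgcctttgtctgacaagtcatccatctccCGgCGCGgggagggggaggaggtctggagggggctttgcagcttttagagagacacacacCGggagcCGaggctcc
PAX8: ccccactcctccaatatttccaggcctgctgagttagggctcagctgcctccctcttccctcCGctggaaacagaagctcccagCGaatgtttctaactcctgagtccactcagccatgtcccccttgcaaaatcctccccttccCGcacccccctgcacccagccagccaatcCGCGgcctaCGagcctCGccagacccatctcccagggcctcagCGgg
SIX2: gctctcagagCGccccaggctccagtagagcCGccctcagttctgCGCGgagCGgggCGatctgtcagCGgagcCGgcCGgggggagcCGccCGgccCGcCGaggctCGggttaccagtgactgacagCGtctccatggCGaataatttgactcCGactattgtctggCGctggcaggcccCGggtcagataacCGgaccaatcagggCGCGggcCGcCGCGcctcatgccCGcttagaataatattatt
The printed stretches hold 15 CpG in 250 bases for PAX2, 8 in 221 bases for PAX8 and 26 in 250 bases for SIX2. Over the full 300-base windows, from 250 bases before to 50 after the start, the CpG observed over expected was 0.578 for PAX2, 0.483 for PAX8 and 0.949 for SIX2, against a median of 0.579 over 35116 windows of the table. The SIX2 value was at or above 86.4% of all windows, that of PAX8 at or above 45.2%. The other PAX2 window had 0.561, and the 4 WT1 windows ranged from 0.238 to 0.757. No window of these 4 genes held TTTGGCGC or TTTCCCGC (E2F motifs), GCGTGGGNG (an EGR and WT1 motif) or TATAAA on either strand. Of all windows, 0.652%, 1.63%, 2.8% and 11.5% held them, so that these letters are uncommon in windows of this length in general.

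The labels were checked on RB1 and on SMARCB1, the subunit of the SWI/SNF complex whose loss defines rhabdoid tumours. RB1 was between 2300 and 2828 normalized counts in the WT libraries and between 505 and 1045 in the clone libraries. SMARCB1 had 0 reads in all 18 libraries. Depth ranged from 25709489 to 39314860 reads per library, at which 3 reads, the floor used here, are 2.62 to 3.694 normalized counts. Floors cover counting error only. These are cultures in bulk, so fewer expressing cells and less RNA per cell cannot be told apart for any value below.

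**Figure D1:**
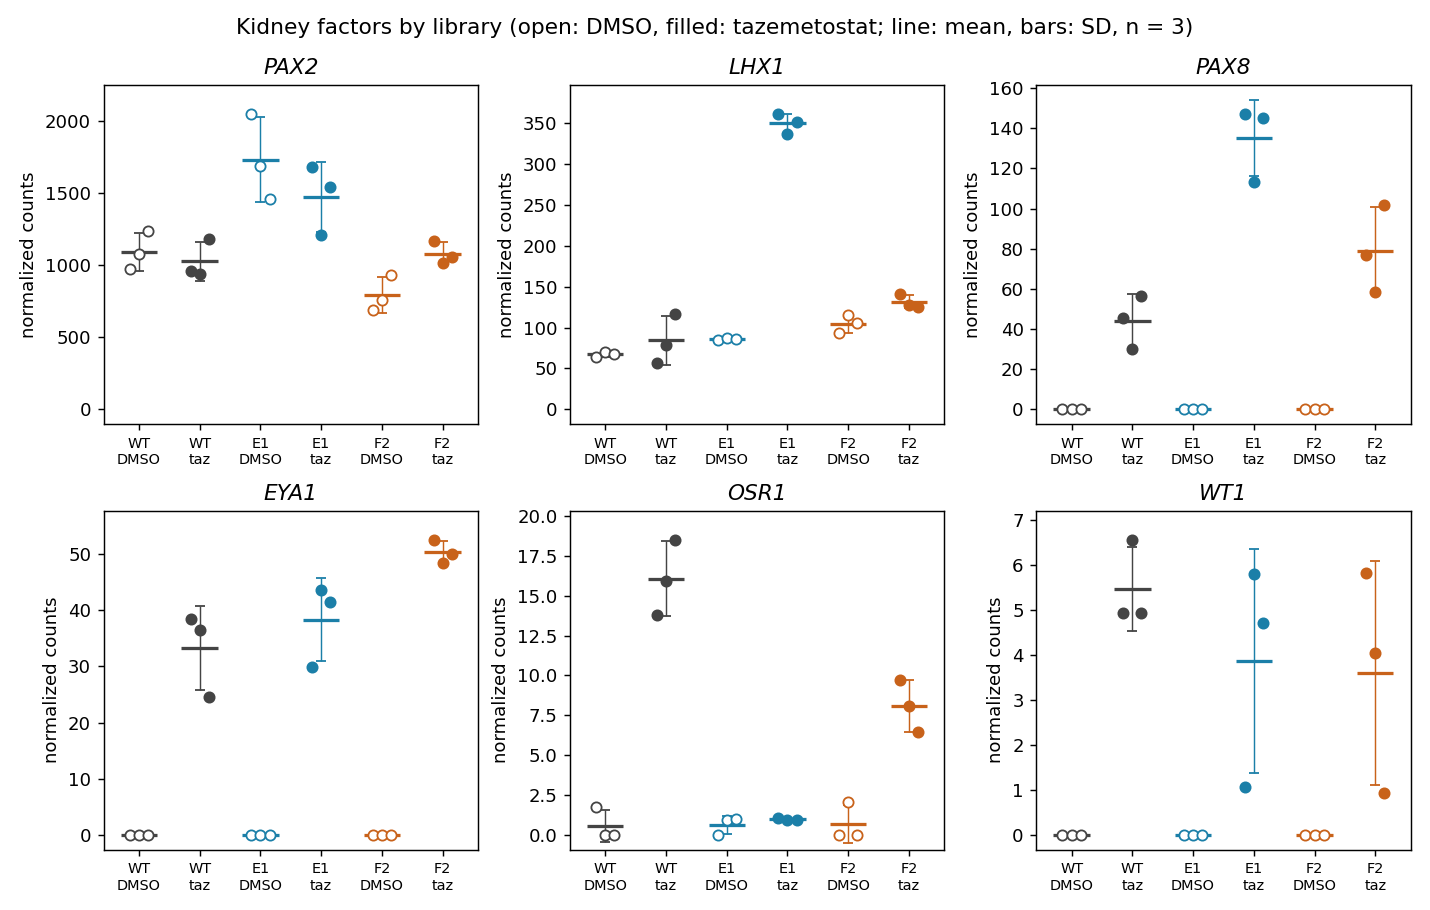
Normalized counts (vertical axes, linear, 1 scale per gene) of 6 kidney factors in the 6 groups, with 1 point per library, a line at the mean and bars of 1 SD (n = 3). PAX8, EYA1 and WT1 lie at 0 in every DMSO group, LHX1 stands highest in E1 with tazemetostat at 338 to 361, and OSR1 stays near 1 in E1 in both treatments.

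Tests were limma fits on log2(value + 1) over the 16154 genes whose mean normalized count was 10 or more. A gene was past the threshold with a Benjamini-Hochberg adjusted p under 0.05 over those genes and a log2 change of at least 1 in size. Of the 8 factors 4 were tested, PAX2, PAX8, LHX1 and EYA1. PAX8 and EYA1 passed the filter on low values through their tazemetostat groups alone, so a change was bound to follow, and their counts of reads carry the description. With tazemetostat, 2 of the 4 were higher past the threshold in WT (PAX8 and EYA1), where 14.5% of all tested genes were. In E1 it was 3 (LHX1 as well), against 11.3%, and in F2 2, against 13.3%. None of the 4 was lower past it, as 6.77% of tested genes were for WT, 3.78% for E1 and 3.71% for F2. In either direction the share of tested genes past it was 21.3% for WT, 15.1% for E1 and 17% for F2.

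PAX2, the factor of the nephric lineage and ureteric bud, was the most abundant of the 8 per length of transcript. In WT with DMSO it was 175 ± 21.2 normalized counts per kb of exon (SD, n = 3), against 13.8 ± 0.709 for LHX1, with exon lengths from GENCODE v29. In WT with DMSO its libraries stood at 970, 1074 and 1232 normalized counts, and with tazemetostat at 961, 934 and 1177. In E1 they were 2043, 1683 and 1460 with DMSO and 1676, 1206 and 1538 with tazemetostat. In F2 they were 690, 757 and 933 with DMSO and 1165, 1015 and 1056 with tazemetostat. The treatments overlapped in WT and in E1, while in F2 every tazemetostat library lay above every DMSO library, as for 33.6% of tested genes.

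The inhibitor left PAX2 on the same side of the threshold in all 3 lines. The log2 change was -0.09 ± 0.14 in WT (SE; limma adjusted p 0.587) and -0.23 ± 0.14 in E1 (0.203). F2 had 0.45 ± 0.14 (0.013), which missed the fold limit. A difference between lines did pass it. In DMSO, E1 was 2.18-fold above F2, a log2 difference of 1.12 ± 0.14 with a limma adjusted p of 6.55e-06, where 7.56% of tested genes were past the threshold and 4.05% were higher in E1. This call rested on 1 library: without E1 DMSO replicate 1, the highest of the 18, the difference was 0.99 with an adjusted p of 7.28e-05, just under the fold limit. Against WT in DMSO the difference was 0.66 ± 0.14 in E1 (limma adjusted p 0.0024) and -0.46 ± 0.14 in F2 (0.0286), both short of the fold limit and in opposite directions. With tazemetostat E1 was above WT by 0.52 ± 0.14 (0.00561), and F2 was within the spread, at 0.08 ± 0.14 (0.66). In order of mean the groups ran from F2 DMSO at 794 through WT tazemetostat at 1024, F2 tazemetostat at 1079, WT DMSO at 1092 and E1 tazemetostat at 1473 to E1 DMSO at 1729. The F2 DMSO libraries ended just short of the lowest WT tazemetostat library, and from there upwards each group overlapped the next in single libraries.

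LHX1, the factor of the nephric duct and renal vesicle, rose with tazemetostat in E1. Its E1 libraries were 84.8, 87.8 and 85.7 normalized counts with DMSO and 361, 338 and 351 with tazemetostat. In WT they were 63.8, 70.7 and 67.2 with DMSO and 57.2, 78.6 and 117 with tazemetostat. In F2 they were 93.2, 115 and 106 with DMSO and 141, 128 and 126 with tazemetostat. The treatments were far apart in E1 and close but without overlap in F2, where 33.6% of tested genes were higher without overlap. They overlapped in WT, where the 3 tazemetostat libraries were spread more widely than those of any other group relative to their mean of 84.2 ± 30.3 (SD, n = 3).

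In E1 LHX1 was 4.06-fold higher with tazemetostat, or 2.01 ± 0.18 on the log2 scale (SE; limma adjusted p 1.68e-08). In WT the change was 0.26 ± 0.18 (0.208) and in F2 0.33 ± 0.18 (0.13), neither past the threshold. The difference between responses was itself tested: E1 exceeded WT by 1.75 ± 0.25 (limma adjusted p 3.1e-05), where 10% of tested genes were past the threshold and 4.79% had the higher response in E1. It stayed past the threshold in all 33 alternatives, between 1.50 and 2.01, including edgeR and DESeq2 on the recovered reads. The response of F2 differed from that of WT by 0.07 ± 0.25 (0.874), with 7.48% of tested genes past the threshold. With tazemetostat E1 was also above F2, by 1.41 ± 0.18 (limma adjusted p 8.14e-06, with 6.82% of tested genes past the threshold and 2.39% higher in E1), and above WT by 2.10 ± 0.18 (2.04e-08, with 11.3% and 5.4%). These comparisons share the E1 tazemetostat libraries. In DMSO the lines were close. F2 exceeded WT by 0.63 ± 0.18 (0.0184), under the fold limit, and the difference of E1 from WT was 0.35 ± 0.18 (0.173), although neither clone's libraries overlapped those of WT. Among tested genes 14.8% in E1 and 18.1% in F2 were higher than WT without overlap in DMSO.

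**Figure D2:**
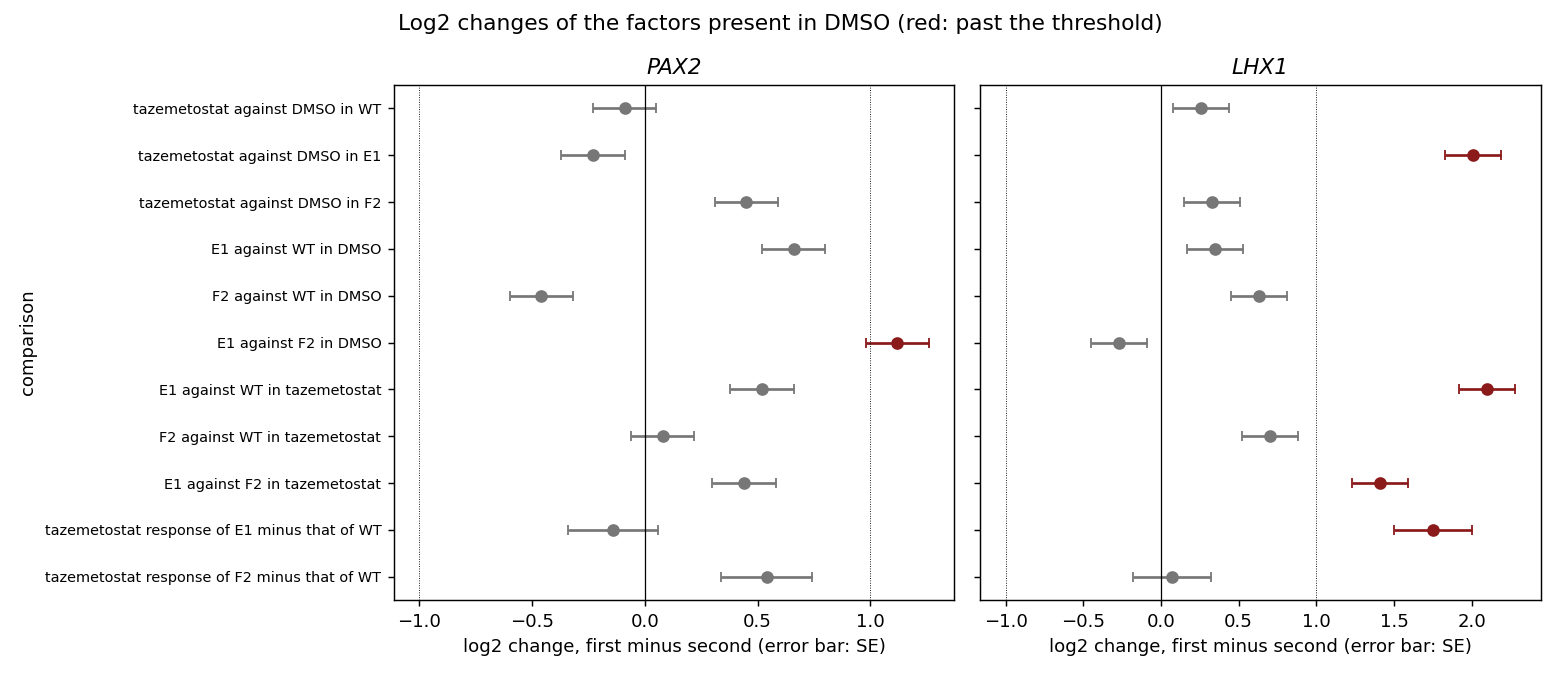
Log2 changes (horizontal axis, first group minus second, log2(value + 1) scale) of PAX2 and LHX1 in the 11 comparisons, with bars of 1 SE. Red points are past the threshold: for LHX1 the 4 that involve E1 with tazemetostat (between 1.41 and 2.10), for PAX2 E1 against F2 in DMSO (1.12).

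PAX8, the paralog of PAX2 that marks renal epithelium, went from no reads to a low level in all 3 lines. It had 0 reads in each of the 9 DMSO libraries. With tazemetostat its libraries stood at 45.3, 29.9 and 56.6 normalized counts in WT, at 147, 113 and 145 in E1, and at 76.7, 58.5 and 102 in F2. By mean WT was lowest, at 44.0 ± 13.4, F2 was at 79.0 ± 21.7 and E1 was highest, at 135 ± 19.0 (SD, n = 3). The highest WT library and the lowest F2 library were close. Against a floor of 3 reads per DMSO library PAX8 was higher by at least 15.9-fold in WT, 47.7-fold in E1 and 24.1-fold in F2. Even so, at 18.3 ± 2.57 normalized counts per kb in E1 it stayed well under PAX2 in the same libraries, at 236 ± 38.7 (SD, n = 3).

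Among tazemetostat libraries PAX8 was 3.07-fold higher in E1 than in WT, a log2 difference of 1.63 ± 0.26 (SE; limma adjusted p 4.19e-05). F2 exceeded WT by 0.84 ± 0.26 (0.0111) and E1 exceeded F2 by 0.79 ± 0.26 (0.025), both under the fold limit. F2 against WT moved to 1.04, past the limit, without WT tazemetostat replicate 3 and again without F2 tazemetostat replicate 2. As a difference in response, E1 against WT was 1.63 ± 0.37 with a limma adjusted p of 0.00207. That call does not hold in count models: with no read in the DMSO libraries of either line, edgeR gave 1.64 with an adjusted p of 1 and DESeq2 1.60 with 0.509, and limma without replicate 1 gave 1.61 with 0.0552. The size of the difference was thus nearly the same in each, and the p was not. The direct comparison with tazemetostat held in edgeR (9.6e-05) and DESeq2 (1.59e-07). Whether counting used the strand was not given, so reads of an antisense neighbour could be part of the PAX8 value.

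EYA1, the co-activator partner of SIX2 and its relatives, behaved like PAX8 in DMSO, with 0 reads in 9 libraries. With tazemetostat the WT libraries stood at 38.4, 36.5 and 24.6 normalized counts, those of E1 at 29.8, 43.5 and 41.5, and those of F2 at 52.4, 48.4 and 49.9. WT and E1 overlapped, and F2 had the highest mean, at 50.3 ± 2.01 (SD, n = 3). Against the same floor EYA1 was higher by at least 12-fold in WT, 13.5-fold in E1 and 15.4-fold in F2. Differences between lines under tazemetostat were under the fold limit. E1 minus WT was 0.21 ± 0.24 on the log2 scale (SE; limma adjusted p 0.497), F2 minus WT 0.61 ± 0.24 (0.0418) and E1 minus F2 -0.40 ± 0.24 (0.211). For F2 minus WT the adjusted p was 0.0559 in limma with a replicate block and 0.12 in DESeq2. By mean, the clone with the highest PAX8 was not the line with the highest EYA1, but E1 and F2 were not told apart for EYA1.

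OSR1, the early factor of intermediate mesoderm, was under the filter on low values, so its reads are given. In DMSO the libraries had 2, 0 and 0 reads in WT, 0, 1 and 1 in E1, and 0, 2 and 0 in F2. With tazemetostat WT had 14, 17 and 15 reads, F2 had 10, 8 and 7, and E1 had 1 in each library. WT was the highest group and F2 the next, and E1 did not leave the range of the DMSO libraries. In normalized counts the tazemetostat means were 16.1 ± 2.34 in WT, 8.09 ± 1.62 in F2 and 0.991 ± 0.0647 in E1 (SD, n = 3). Against the floor the tazemetostat libraries were higher by at least 5.81-fold in WT and 2.47-fold in F2, and under tazemetostat OSR1 was at least 5.4-fold lower in E1 than in WT and at least 2.72-fold lower than in F2.

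A fit without the filter tested OSR1 too. With tazemetostat its log2 change was 3.60 ± 0.48 in WT (SE; limma adjusted p 4.77e-06), 2.63 ± 0.48 in F2 (0.000246) and 0.34 ± 0.48 in E1 (0.715). Of the 35344 genes in that fit, 5720 were past the threshold in WT, 4698 in F2 and 4082 in E1. For OSR1 in E1 against WT under tazemetostat the fit gave -3.09 ± 0.48 (6.02e-05), and edgeR without the filter gave -3.86 (6.67e-07). As a difference in response, E1 against WT was -3.26 ± 0.68 with limma (0.00222) and -3.91 with edgeR, whose adjusted p of 0.17 did not pass. OSR1 and LHX1 therefore ordered the lines differently under tazemetostat, E1 being lowest for OSR1 and highest for LHX1.

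WT1, the factor of progenitors and podocytes, was near the limit of detection. It had 0 reads in the 9 DMSO libraries. With tazemetostat it had 5, 7 and 4 reads in WT, 1, 6 and 5 in E1, and 6, 4 and 1 in F2. Every tazemetostat library thus had a read and the lines overlapped fully. In the same fit without the filter its log2 changes were 2.68 ± 0.45 in WT (SE; limma adjusted p 6.64e-05), 2.11 ± 0.45 in E1 (0.00124) and 2.02 ± 0.45 in F2 (0.00157), and edgeR called the same 3. WT1-AS, which runs antisense to it, had 0 reads in all 18 libraries.

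SIX2, the self-renewal factor of nephron progenitors, had 0 reads in all 18 libraries, which allows 3 reads per library. SALL1, a zinc finger factor of the cap mesenchyme, had 2 reads in WT tazemetostat replicate 3 and 0 in the other 17. Neither was detectable above the floor at this depth in any group. EYA1 was thus read under tazemetostat without SIX2, its partner in the cap mesenchyme.

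Between the clones and WT in DMSO, 0 of the 4 tested factors were past the threshold in limma, against 5.04% of all tested genes for E1 and 2.98% for F2. PAX8 and EYA1 had 0 reads in every DMSO library and could not differ there, so only PAX2 and LHX1 could have been called. With the fold limit, edgeR and DESeq2 each called 0 as well. Without the fold limit, a limma adjusted p under 0.05 was reached by 1 factor (PAX2) for E1 and 2 (PAX2 and LHX1) for F2. By that same rule 3740 of the 16154 tested genes passed for E1 and 3260 for F2. Under tazemetostat E1 differed from WT in 2 of the 4 (LHX1 and PAX8), against 11.3% of all tested genes, and F2 in 0 in limma, edgeR and DESeq2, against 12.3%. There 3 (PAX8, LHX1 and EYA1) had a limma adjusted p under 0.05 without the fold limit. In that comparison of F2 with WT, 8573 of the 16154 tested genes had a limma adjusted p under 0.05 without the fold limit. The 3 of 4 is therefore no result about the factors.

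The genes whose pattern over the 18 libraries was most like that of a factor were sought for PAX2 and LHX1, the tested factors with a mean of at least 50. For LHX1 they were NAB2, GPRC5B and ELF4, with a Pearson's r of 0.9028, 0.9025 and 0.896 on the log2 scale. NAB2 is a co-repressor of EGR factors and ELF4 an ETS factor. GPRC5B, an orphan receptor, went from a DMSO level of 362 ± 32.1 normalized counts to 822 ± 49.4 under tazemetostat in E1 (SD, n = 3), from 380 ± 17.3 to 423 ± 18.3 in WT and from 488 ± 48.5 to 617 ± 23.9 in F2. It was chosen for its likeness to LHX1, so these levels are a description. For PAX2 they were CLDN19, ARID3A and AF127936.7, with r of 0.9398, 0.882 and 0.8666. CLDN19, a tight junction claudin of the renal tubule, was 93.3 ± 22.0 normalized counts in E1 with DMSO, 22.4 ± 2.74 in WT and 8.18 ± 4.02 in F2 (SD, n = 3), the same order as PAX2. CLDN19 was likewise chosen for its likeness to PAX2, so the shared order is a description. These r describe libraries that share lines and treatments.

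Other genes of the kidney lineages were taken as 6 lists, of which 5 follow the place in the developing organ and the last holds paralogs of the 8 factors. Some genes, SIX4 and SALL4 among them, stand on 2 of these lists. Many of these genes also act outside the kidney. All of these lists hold genes that passed the filter through tazemetostat groups alone. Those genes were bound to be higher, so the counts over tested genes given for each list do not support a direction. Over all tested genes, too, more were higher than lower past the threshold in each line (14.5% and 6.77% for WT, 11.3% and 3.78% for E1, 13.3% and 3.71% for F2).

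The count was therefore repeated over genes with a mean of at least 10 in some DMSO group, a step added after seeing the data. Of 8 such progenitor genes, 0 were higher and 2 lower past the threshold in WT, 1 and 2 in E1, and 0 and 2 in F2. Of 5 stromal and early mesodermal genes 1 was higher in each line, and 1, 2 and 1 were lower in WT, E1 and F2. The ureteric bud list, with 8 such genes, had 3 higher in each line against 2, 1 and 1 lower. The podocyte list, with 7, had 4, 5 and 4 higher against 1, 1 and 2 lower, and the paralogs, with 16, had 6, 5 and 5 against 1, 1 and 2. Only 3 renal vesicle and tubule genes remained, of which 1 was higher and 0 were lower in each line. The share of all genes past the threshold under this same restriction is not given here. The shares over all tested genes do not match it, so these counts are a description and support no direction for a list. The median over all tested genes of a list was below 0 for progenitor genes in WT, for stromal genes in both clones and for paralogs in E1, and scaling each library to the same total took the WT median of paralogs from 0.07 to -0.08.

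Of 15 nephron progenitor genes 12 were tested, 4 of them so. In WT 4 were higher and 2 lower past the threshold, in E1 5 and 2, and in F2 4 and 2. The median log2 change of the 12 was -0.21, 0.32 and 0.27, beside 0.03, 0.02 and 0.02 over all tested genes. NCAM1, an adhesion molecule of condensing mesenchyme, had at most 1 read in a DMSO library, and with tazemetostat its level was 462 ± 18.8 normalized counts in F2, 304 ± 18.5 in E1 and 141 ± 14.8 in WT (SD, n = 3). DAPL1 had 0 reads in the DMSO libraries and was higher by at least 35.6-fold in WT, 52.6-fold in E1 and 57.3-fold in F2. ITGA8, an integrin by which the mesenchyme signals to the ureteric bud, was at least 18.6-fold, 15.6-fold and 23.5-fold higher. MEOX1 and HOXC11, homeobox factors named after their values were seen, were the 2 that fell in each line, in WT by 1.05 and 1.36 on the log2 scale.

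Of 15 ureteric bud and collecting duct genes 11 were tested, 3 of them through tazemetostat groups alone. In each line 6 were higher past the threshold, and 2, 1 and 1 were lower in WT, E1 and F2. The median log2 change was 1.44, 1.56 and 2.74. CALB1, the calbindin of the distal nephron, had at most 2 reads in a DMSO library, and under tazemetostat WT reached 116 ± 27.1 normalized counts, E1 34.4 ± 2.50 and F2 30.2 ± 4.56 (SD, n = 3). GATA3, a zinc finger factor of the nephric duct, was at least 22.1-fold, 22.8-fold and 17.5-fold higher. EMX2, a homeobox factor of the ureteric bud, was at least 12.4-fold, 8.4-fold and 25-fold higher. The genes that fell past the threshold were ETV4 (log2 change -1.01) and SPRY1 (-1.88) in WT, WNT11 (-1.99) in E1 and SPRY1 (-1.86) in F2.

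Of 17 renal vesicle and tubule genes 6 were tested, 3 of them through tazemetostat groups alone, and 4 of the 6 were higher past the threshold in each line. They were WNT4, JAG1, DLL1 and LRP2. The median log2 change was 4.02, 2.64 and 3.52, and 3.83, 2.64 and 3.52 with genes at the floor in DMSO set to their lower bound. JAG1, a Notch ligand, had at most 3 reads in a DMSO library, and under tazemetostat WT reached 1187 ± 43.8 normalized counts, F2 808 ± 44.1 and E1 325 ± 17.1 (SD, n = 3). DLL1, another Notch ligand, was 24-fold, 11.2-fold and 16.6-fold higher. LRP2, the megalin receptor of the proximal tubule, was at least 19.1-fold, 27.7-fold and 60.5-fold higher.

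Of 12 podocyte genes 8 were tested, 1 of them through tazemetostat groups alone. In WT 5 were higher and 1 lower past the threshold, in E1 6 and 1, and in F2 5 and 2, with a median log2 change of 1.44, 1.49 and 1.42. PODXL, the podocalyxin of the podocyte surface, went from 42.9 ± 10.0 to 20020 ± 970 normalized counts in WT, from 46.9 ± 8.99 to 17830 ± 1110 in E1 and from 26.8 ± 4.99 to 6732 ± 511 in F2 (SD, n = 3). NPHS1, the nephrin of the slit diaphragm, was 2.82-fold, 5.66-fold and 16.1-fold higher. FOXC2, a forkhead factor, was at least 16.7-fold higher in WT and at least 14.3-fold in F2. In E1 it had 1 to 5 reads in a DMSO library and 5 to 11 with tazemetostat, a 3.38-fold difference (log2 change 1.49 ± 0.45, SE; limma adjusted p 0.0105), or at least 2.86-fold without E1 DMSO replicate 1. That call was lost with a pseudocount of 5 (0.83, under the fold limit), without replicate 2 (1.24, adjusted p 0.101) and without E1 DMSO replicate 3 (1.15, adjusted p 0.0553). Other podocyte genes fell past the threshold: FOXC1 in WT (log2 change -1.55) and F2 (-2.59), and LMX1B in E1 (-1.10) and F2 (-1.13).

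Of 13 stromal and early mesodermal genes 7 were tested, 2 of them through tazemetostat groups alone. In each line 3 were higher past the threshold, MEIS1 and SFRP1 among them, and 1, 2 and 1 were lower in WT, E1 and F2. The median log2 change was 0.37, -0.58 and -0.54. MEIS1, a TALE homeobox factor, was at least 4.73-fold, 4.17-fold and 14.5-fold higher, and SFRP1, a secreted WNT antagonist, at least 15.6-fold, 5.04-fold and 18.4-fold.

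Of 29 paralogs 17 were tested, 1 of them through tazemetostat groups alone. In WT 7 were higher and 1 lower past the threshold, in E1 6 and 1, and in F2 6 and 2, with a median log2 change of 0.07, -0.04 and 0.16. EGR3, whose zinc fingers resemble those of WT1, went from 2.79 ± 1.02 to 160 ± 22.8 normalized counts in WT, from 12.03 ± 3.35 to 302 ± 10.7 in E1 and from 1.50 ± 0.806 to 154 ± 7.25 in F2 (SD, n = 3). EGR4, another EGR factor, was 10.4-fold higher in E1 and at least 5.13-fold in F2. In WT its DMSO libraries had 1, 0 and 5 reads and its tazemetostat mean was 33.3 ± 9.33 normalized counts, a fold of 17.8 that rests on the 5 reads of WT DMSO replicate 3, without which it was at least 12.2-fold higher. LHX3, a LIM-homeobox relative of LHX1, was at least 5.08-fold higher in F2. In WT its DMSO libraries had 5, 0 and 2 reads and its tazemetostat mean was 33.0 ± 5.90, a fold of 15.8 that was at least 11.6 without WT DMSO replicate 1 and 10.5 without WT DMSO replicate 2. In E1, where LHX3 was already 19.3 ± 6.23 in DMSO, its log2 change was 0.51 ± 0.46 (SE; limma adjusted p 0.394). The paralogs that fell past the threshold were SALL2 (log2 change -1.18) in WT, LHX6 (-3.33) in E1, and LHX6 (-2.96) and OSR2 (-1.65) in F2.

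**Figure D3:**
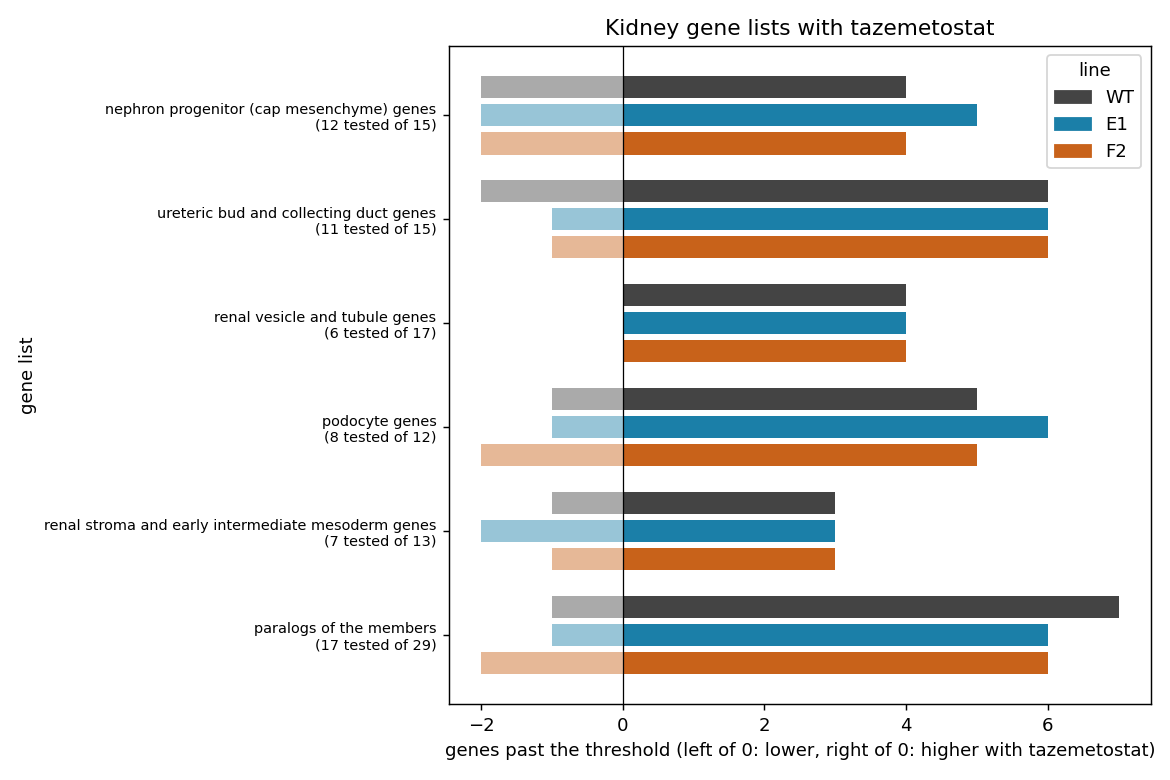
Number of genes of each list past the threshold with tazemetostat (horizontal axis; right of 0 higher, left of 0 and paler lower) in WT, E1 and F2, with the number tested beside each list. The higher counts include the genes that passed the filter through tazemetostat groups alone, such as 4 of the 12 tested progenitor genes, which were bound to be higher.

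**Figure D4:**
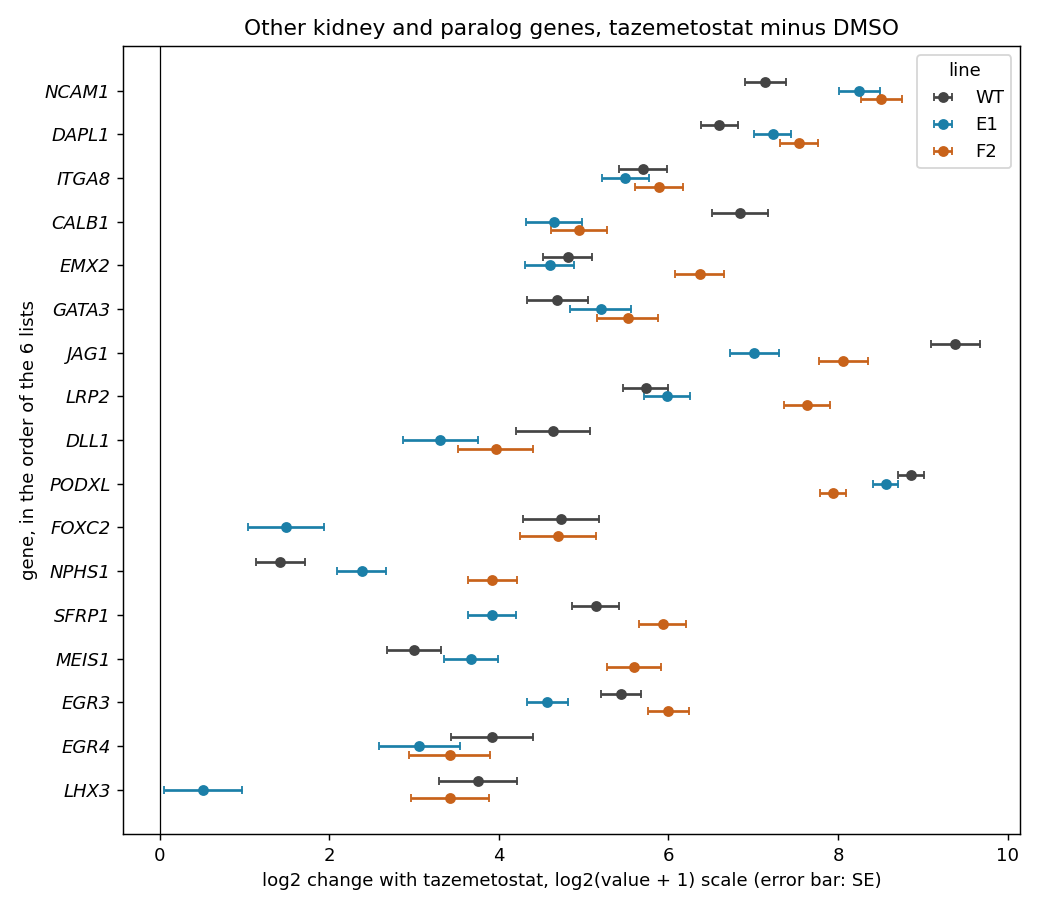
Log2 change with tazemetostat (horizontal axis, log2(value + 1) scale, bars of 1 SE) of the genes with the largest change on each list (2 for the stromal list, 3 for the others), in WT, E1 and F2. JAG1 has the largest change in WT, at 9.38, and LHX3 in E1, at 0.51, is the single point that did not pass the threshold.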

How the data were processed

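The authors deposited normalized gene values, a signal made of read counts divided by a size factor per library, in 1 table with a column per sample. Trim Galore 0.4.4, STAR 2.6.0a, HTSeq, DESeq2 and hg19 are named, without roles, per the submitters' processing notes. Strandedness of counting and the annotation are not given in the sources used here. Values times the factor of their library were whole reads for 100% of values (relative tolerance 1e-06), the factors ranging from 0.812 to 1.145. No replicate pair agreed within sampling noise (chi-square per degree of freedom 2.32 to 61.9).

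limma 3.58.1 in R 4.3.3 (lmFit, eBayes with trend) was fitted to log2(value + 1) of 16154 genes with a mean of at least 10, as 6 group means without a replicate block, with 11 contrasts. This understates changes of low genes. A group was at the floor when no library had over 3 reads. The 8 factors, the lists and the tests were chosen with earlier results of these data known. Named genes of a list were the 3 with the largest change past the threshold with tazemetostat. Genes of a list that fell past it were named besides, after their values were seen. A gene that this rule gave for the stromal list is not reported here. Replicate numbers are shared between groups: deviations of same-numbered libraries correlated above 0.1 in all 3 pairs for F2 against WT in DMSO (0.108 to 0.375), and not in every pair of the other comparisons. Alternatives included edgeR 4.0.16 and DESeq2 1.42.0 on recovered reads. edgeR without a filter, the list counts without genes that passed the filter through tazemetostat groups alone, and folds with 1 library left out were added after seeing the data. Figures used matplotlib 3.10.9 in Python 3.11.15.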

Additional observations from a re-analysis of the deposited data

Results flagged for a closer look

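The response to tazemetostat of 2 factors drew attention because the difference between lines was itself tested. For LHX1 the response of E1 exceeded that of WT by 1.75 ± 0.25 (SE; limma adjusted p 3.1e-05), on 219 reads in all in WT with DMSO, 237 in WT with tazemetostat, 274 in E1 with DMSO and 1061 in E1 with tazemetostat. The mean of E1 with tazemetostat was 350 ± 11.8 normalized counts, and that of the next highest group, F2 with tazemetostat, was 132 ± 8.05 (SD, n = 3).

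For PAX8 the response of E1 exceeded that of WT by 1.63 ± 0.37 (limma adjusted p 0.00207), on 124 reads in WT and 409 in E1 with tazemetostat and 0 in DMSO. edgeR and DESeq2 gave a difference of nearly the same size, 1.64 and 1.60, and did not call it, with an adjusted p of 1 and 0.509.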

How the results depend on the processing

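The number of the 4 tested factors past the threshold kept within 1.5 times its value in most alternatives. Without the filter on low values, in limma and in edgeR alike, it was 4 with tazemetostat in WT and in F2, where OSR1 and WT1 joined, and 2 for E1 against F2 with tazemetostat, where OSR1 joined. In these 3 comparisons 5720, 4698 and 2001 of 35344 genes passed in limma without the filter, and 5287, 4222 and 1731 in edgeR. With a mean of at least 50 required, PAX8 and EYA1 were not tested, and the number was 0 with tazemetostat in WT, 1 in E1, 0 in F2, 1 for E1 against WT with tazemetostat and 1 for the response of E1 against WT. With no fold change limit it was 1 for E1 and 2 for F2 against WT in DMSO, and, with tazemetostat, 3 for E1 against F2 and 3 for F2 against WT. Of the 16154 tested genes, 3740, 3260, 5575 and 8573 passed in these comparisons, in the same order. For the response of E1 against WT, edgeR with and without the filter and DESeq2 gave 1 in place of 2. Leaving out a replicate gave 0 to 1 for F2 against WT with tazemetostat, 0 to 1 for E1 against F2 in DMSO, 1 to 2 for the response of E1 and 0 to 1 for that of F2, the last through PAX8 at 1.04 without WT tazemetostat replicate 3.

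With a replicate block the numbers were 2, 3 and 2 with tazemetostat in WT, E1 and F2 and 0 for F2 against WT in DMSO, and all 38 results of the tested factors stayed on their side of the threshold. Signs turned for small changes that were not past the threshold: PAX2 in F2 against WT with tazemetostat was -0.02 to 0.20 over single replicates left out of all groups, the response of LHX1 in F2 against WT was -0.27 to 0.37 likewise, -0.18 without WT tazemetostat replicate 1 and -0.01 without F2 DMSO replicate 1, and EYA1 in E1 against WT, with tazemetostat and as a response, was -0.05 to 0.49 over the same 3 fits. Scaling every library to the same total moved the median of all genes by -0.152 (log2) with tazemetostat in WT, by 0.147 for F2 against WT with tazemetostat and by 0.123 for the response of F2 against WT, and changed no call of a factor. The same scaling did move counts of the lists with tazemetostat. Higher podocyte genes went from 6 to 5 in E1 and from 5 to 4 in F2. Genes past the threshold in the lower direction went from 1 to 2 for the ureteric bud list in E1 and F2, the stromal list in WT and the paralogs in E1. Depth limits SIX2, SALL1, WT1 and OSR1, whose reads are few or none.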
